A study of Mus musculus with 24 samples.

Results

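Myc, Mxd1, Bhlhe40, Bhlhe41, Hes1, Id1, Id2 and Id3 encode helix-loop-helix transcription regulators, and their mRNA levels were followed in bone marrow-derived macrophages (BMDMs) before and after lipopolysaccharide (LPS). The 8 genes were taken by symbol from a table of 24273 genes, in which each symbol had 1 row. They were chosen by gene family, with earlier results of these data known. Of the 8, 7 passed the filter on low values (2 to the power of the value at 5 or more in at least 3 libraries) and were tested among 13901 genes, each of them above the filter in all 24 libraries. Hes1 did not pass it and was described only.

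The cells were C57BL/6 BMDMs, which are macrophages grown from bone marrow in culture, stimulated with LPS (100 ng/ml), a bacterial ligand of TLR4, for 0, 0.5, 1 or 2 h. The control group was labelled LysM-Cre, and the mutant group FosKO (LysM-Cre Fos-fl/fl). LysM-Cre is a Cre recombinase placed at the lysozyme locus Lyz2, so both genotypes carried it and it is active in myeloid cells. The design text names the controls LysM-Cre alone, whereas the study's text adds a single floxed Fos allele to them, and this could not be settled from the values. Each of the 8 groups had 3 libraries. The methods call the libraries biological replicates, but the labels do not say that they came from separate mice. The p-values below therefore measure the spread between libraries. The ages of the mice that gave the bone marrow were not given in the sources used here.

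Fos mRNA was higher, not lower, in the FosKO-labelled libraries at 0, 1 and 2 h (by 1.49, 1.64 and 3.29 on the log2 scale) and lower only at 0.5 h (-0.77), all past the limma test. It rose in LysM-Cre cells from 11.11 ± 0.05 at 0 h to 13.52 ± 0.08 at 0.5 h and was 9.52 ± 0.10 at 2 h (log2, mean ± SD, n = 3), whereas it had group means between 12.60 and 12.80 in the FosKO-labelled libraries. The table holds a single value per gene, so a deleted exon could not be read separately. Lyz2, the gene that carries the Cre, had group means of 10.94 to 11.33 in LysM-Cre and 16.10 to 16.32 in the FosKO-labelled libraries, and its part in the results was not tested. The 0.5 h change of Fos was 2.41 in LysM-Cre and 0.15 in the FosKO-labelled libraries, a difference in response of -2.26 (limma adjusted p = 1.38e-09). Directions between genotypes below are given as labelled. The 18S ribosomal RNA gene Rn18s-rs5 split the libraries into 19 at 18.57 to 19.39 and 5 between 16.65 and 17. The low set held, at 0.5 h, LysM-Cre replicate 3 with FosKO replicate 1 and, at 1 h, FosKO replicate 1 with LysM-Cre replicates 2 and 3. All 8 macrophage markers passed the filter, Adgre1 at 14.61 or more and Csf1r at 14.95 or more in every library. Their summed level, which includes Lyz2, was 17.15 to 17.43 in LysM-Cre and 17.69 to 18.04 in the FosKO-labelled libraries. Of 5 endothelial markers, 3 passed, and their summed level was 8.37 to 8.75 in LysM-Cre and 8.98 to 10.02 in the FosKO-labelled libraries, most of it Kdr. Of 7 neutrophil markers in the table, 4 passed, with a summed level of 6.31 to 7.43 in LysM-Cre and 5.77 to 6.47 in the FosKO-labelled libraries, and Ly6g and Elane lay at the floor of the table. Stromal markers (4 of 6 passed) summed to 4.85 to 5.62 up to 1 h and to 6.02 to 6.32 at 2 h over both genotypes. Dendritic cell markers (2 of 5 passed) summed to 4.87 to 5.74 and 6.41 to 6.94. At 0 and 1 h the stromal sum was 5.28 to 5.51 and 5.15 to 5.62 in LysM-Cre. In the FosKO-labelled libraries it was 4.85 to 5.13 and 4.90 to 5.13. The dendritic cell sum at 2 h was 6.80 to 6.94 in LysM-Cre and 6.41 to 6.46 in the FosKO-labelled libraries. At the other times these sums overlapped between the genotypes. No marker of B cells, T and NK cells, mast cells or erythroid cells passed. The part of other cell types in the results was not tested, and in bulk RNA fewer cells of a type and less RNA per cell cannot be told apart.

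Helix-loop-helix factors pair through a shared fold. MYC binds E-box DNA with its partner MAX and activates genes for growth and ribosome production, while MXD1 takes the place of MYC beside MAX and represses such genes. BHLHE40 and BHLHE41 (DEC1 and DEC2) are repressors that bind E-boxes themselves and feed into the circadian clock, and BHLHE40 is known to restrain Il10 in macrophages and T cells. HES1 is a repressor best known as a target of Notch signaling. ID1, ID2 and ID3 lack the DNA-binding region, so they hold E proteins in pairs that cannot bind DNA, and their genes are classic targets of BMP and SMAD signaling.

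On the mouse build GRCm38 (mm10), all 8 were protein-coding genes. Myc lay at chr15:61985391-61990374 on the plus strand, Mxd1 at chr6:86647042-86669161 on the minus strand and Bhlhe40 at chr6:108660629-108666925 on the plus strand. Bhlhe41 lay at chr6:145858243-145865558 (minus), Hes1 at chr16:30064384-30067796 (plus), Id1 at chr2:152736251-152737410 (plus), Id2 at chr12:25093799-25097140 (minus) and Id3 at chr4:136143497-136145755 (plus). The annotation places Gm44292 over 2364 bases of Mxd1 on the same strand, 0610040F04Rik over 306 bases of Bhlhe40 on the opposite strand and Gm43909 over 1876 bases of Bhlhe41 on the opposite strand. The methods call the reads strand-specific but do not say whether they were counted by strand, so a share of the values of these 3 members may belong to those transcripts.

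Mxd1, Bhlhe41 and Id2 were the members higher in the FosKO-labelled libraries at all 4 times, and the stretches upstream of their RefSeq starts are shown for that reason. They are the bases, of the 250 before each start (GRCm38.p6), that no annotated exon covers, at chr6:86669162-86669409, chr6:145865559-145865670 and chr12:25096254-25096342, all on the minus strand. The Id2 stretch lies inside the annotated Id2 gene (chr12:25093799-25097140), so it is upstream of the RefSeq start used but not of the whole gene. Capitals mark the E-box.
Mxd1: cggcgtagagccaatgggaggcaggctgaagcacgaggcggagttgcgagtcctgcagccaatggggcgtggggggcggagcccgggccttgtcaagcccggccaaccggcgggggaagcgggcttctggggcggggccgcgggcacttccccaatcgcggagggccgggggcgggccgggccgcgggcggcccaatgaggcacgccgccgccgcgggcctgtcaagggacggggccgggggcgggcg
Bhlhe41: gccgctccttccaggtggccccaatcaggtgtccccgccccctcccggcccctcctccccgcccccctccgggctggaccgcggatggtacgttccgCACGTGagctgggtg
Id2: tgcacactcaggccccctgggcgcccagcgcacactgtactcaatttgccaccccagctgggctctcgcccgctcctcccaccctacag
Of the 8 members, 4 were matched in the promoter table (these 3 and Id3, whose 250 bases all lay in an annotated exon). Their full 250 bases were searched on both strands for an AP-1 site TGANTCA, which 6.75% of 32851 promoters held, a CRE TGACGTCA (1.55%), the E-box CACGTG (6.02%), the NF-kB consensus (7.25%) and the SRF CArG box (1.47%). The only match was the E-box of Bhlhe41, at positions -153 to -148 from the start. A missing match says only that these letters are not in this window. The GC content of the 250 bases was 78.4% for Mxd1, 73.6% for Bhlhe41 and 62.8% for Id2, beside a median of 52.4% over all promoters.

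Myc mRNA rose within 0.5 h of LPS and was below its starting level by 2 h in both genotypes. All levels below are deposited log2 values, on which a difference of 1 is a doubling, and a change is called where its limma p, adjusted over all tested genes, was under 0.05. In LysM-Cre, the 3 libraries read 9.83, 9.91 and 9.92 before LPS, 10.82, 10.86 and 10.92 after 0.5 h, 11.06, 11.12 and 11.26 after 1 h, and 8.69, 8.68 and 8.63 after 2 h. The libraries labelled FosKO read 9.69, 9.60 and 9.65 before LPS, 10.37, 10.40 and 10.18 after 0.5 h, 10.27, 10.29 and 10.25 after 1 h, and 8.56, 8.28 and 8.22 after 2 h. At every time all 3 FosKO-labelled libraries lay below all 3 LysM-Cre libraries. The difference (labelled FosKO minus LysM-Cre) was -0.24, -0.55, -0.88 and -0.32 at 0, 0.5, 1 and 2 h, each with a standard error of 0.07. All 4 passed the test, with limma adjusted p = 0.00975, 1.85e-06, 5.23e-09 and 0.000753, and the gap at 1 h was 1.84-fold.

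The highest group mean of Myc lay at 1 h in LysM-Cre and at 0.5 h in the FosKO-labelled libraries. In LysM-Cre, Myc was highest at 1 h, with a rise of 0.28 from 0.5 h (limma adjusted p = 0.00355). In the high 18S set alone, which lacks LysM-Cre 0.5 h replicate 3 and LysM-Cre 1 h replicates 2 and 3, this rise was 0.22 and was not called (adjusted p = 0.210). That set has 1 LysM-Cre library at 1 h, which the fit assumes to vary like the libraries of the other groups, and this holds for every p of the set at 1 h below. In the FosKO-labelled libraries the levels at 0.5 and 1 h did not differ beyond their spread (-0.05, 95% interval -0.19 to 0.09). The steps from 0.5 to 1 h and from 1 to 2 h were themselves not compared between the genotypes for any member. The rise from 0 to 1 h was 1.26 in LysM-Cre and 0.62 in the FosKO-labelled libraries. The difference between these rises was -0.64 ± 0.10 (SE, limma adjusted p = 0.000544). In the 19 libraries of the high 18S set alone, again with 1 LysM-Cre library at 1 h, it was -0.55 and its adjusted p was 0.0607. From 1 to 2 h Myc fell by 2.48 in LysM-Cre and by 1.92 in the FosKO-labelled libraries. At 2 h the change from 0 h was -1.22 and -1.29, and the difference in response was -0.08 (95% interval -0.28 to 0.12).

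Mxd1, the MYC antagonist, was higher in the FosKO-labelled libraries throughout, and it rose with LPS in both genotypes. Its LysM-Cre libraries read 9.50, 9.48 and 9.46 before LPS, 10.08, 10.05 and 10.07 after 0.5 h, 10.70, 10.63 and 10.80 after 1 h, and 10.33, 10.22 and 10.37 after 2 h. Those labelled FosKO read 10.03, 10.36 and 10.50 before LPS, 10.84, 10.86 and 11.37 after 0.5 h, 11.31, 11.63 and 11.52 after 1 h, and 11.30, 11.33 and 11.41 after 2 h. The genotypes did not overlap at any time, and the FosKO-labelled libraries spread more widely at 0 and 0.5 h than the LysM-Cre libraries did. Mxd1 differed by 0.82, 0.96, 0.77 and 1.04 at 0, 0.5, 1 and 2 h, each with a standard error of 0.12, and the largest limma adjusted p was 2.38e-05. At 2 h this was 2.06-fold.

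LPS raised Mxd1 by 0.59, 1.23 and 0.83 in LysM-Cre and by 0.72, 1.19 and 1.05 in the FosKO-labelled libraries at 0.5, 1 and 2 h, all past the test. With only the groups compared in the fit, the rise at 0.5 h in the FosKO-labelled libraries was not called (adjusted p = 0.122), nor was their further rise of 0.46 from 0.5 to 1 h (adjusted p = 0.0893). No difference in response was called, and the 95% intervals were -0.20 to 0.48 at 0.5 h, -0.39 to 0.29 at 1 h and -0.12 to 0.56 at 2 h. Mxd1 stayed above its starting level at 2 h, when Myc lay below it, in both genotypes. From 1 to 2 h it fell by 0.41 in LysM-Cre, whereas the step in the FosKO-labelled libraries was -0.14 (95% interval -0.38 to 0.10). The fall in LysM-Cre was not called in the high 18S set (-0.40, adjusted p = 0.0516), and after quantile normalisation the FosKO step was -0.26 and was called (adjusted p = 0.0479).

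**Figure D1:**
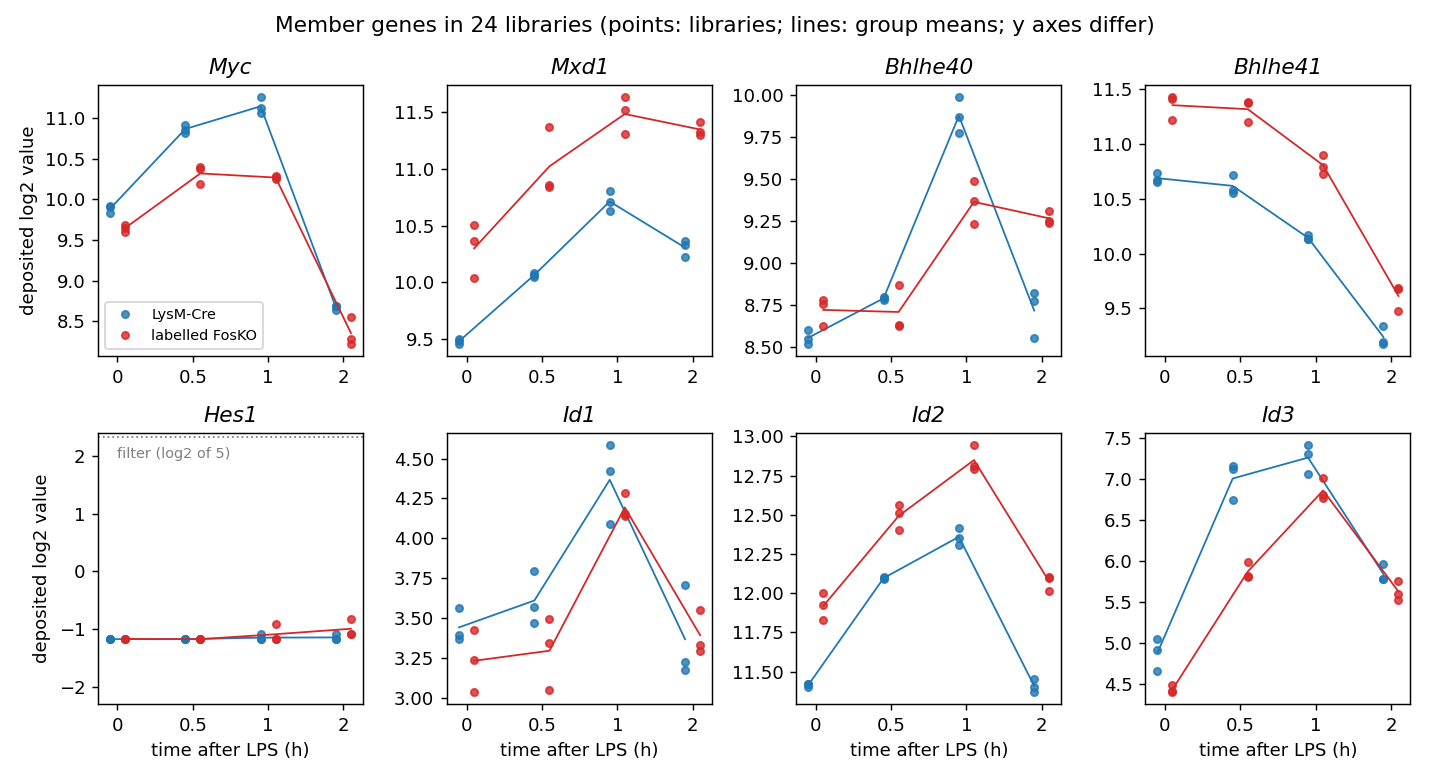
Deposited log2 value (y axis, a range of its own in each panel) of the 8 members against time after LPS in hours (x axis, times evenly spaced), with a point for each library, LysM-Cre in blue and labelled FosKO in red, and lines through the group means. Myc peaks at 11.15 in LysM-Cre and at 10.32 in the FosKO-labelled libraries, Mxd1, Bhlhe41 and Id2 sit higher in the FosKO-labelled libraries at all 4 times, and Hes1 lies under the filter in all 24 libraries.

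Bhlhe40, the repressor that binds E-boxes, had a sharp peak at 1 h in LysM-Cre cells and a lower, longer rise in the FosKO-labelled libraries. The LysM-Cre libraries read 8.52, 8.55 and 8.60 before LPS, 8.78, 8.79 and 8.80 after 0.5 h, 9.87, 9.99 and 9.77 after 1 h, and 8.83, 8.77 and 8.56 after 2 h. Those labelled FosKO read 8.63, 8.78 and 8.76, then 8.63, 8.87 and 8.63, then 9.23, 9.37 and 9.49, and at 2 h 9.25, 9.24 and 9.31. At 1 h every LysM-Cre library was above every FosKO-labelled library, and at 2 h the order was the opposite. The genotype difference was -0.51 ± 0.08 at 1 h and 0.55 ± 0.08 at 2 h (SE, limma adjusted p = 2.05e-05 and 5.47e-06). It was 0.17 at 0 h (95% interval 0.01 to 0.32, adjusted p = 0.0975) and -0.08 at 0.5 h (adjusted p = 0.434), neither of them called.

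From 0 to 1 h Bhlhe40 rose by 1.32 in LysM-Cre and by 0.64 in the FosKO-labelled libraries, which left a difference between these responses of -0.68 ± 0.11 (SE, limma adjusted p = 0.000957). At 2 h the change from 0 h was 0.16 in LysM-Cre, which was not called (adjusted p = 0.0716), and 0.54 in the FosKO-labelled libraries, and the difference in response was 0.38 ± 0.11 (adjusted p = 0.0187). Without LysM-Cre 2 h replicate 3, which read lowest of its group, the LysM-Cre change was 0.24 and was called (adjusted p = 0.0103), while the difference in response was 0.30 and was not (adjusted p = 0.0590). The LysM-Cre change was also called after quantile normalisation (0.18, adjusted p = 0.0410), median centring (0.19, 0.0318) and with a replicate block within genotype (0.0476). Between 1 and 2 h the LysM-Cre level fell 2.23-fold, while the step in the FosKO-labelled libraries was -0.10 (95% interval -0.26 to 0.06).

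Bhlhe41, the close relative of Bhlhe40, fell with LPS and was higher in the FosKO-labelled libraries at all times. In LysM-Cre it read 10.65, 10.74 and 10.68 before LPS, 10.72, 10.55 and 10.58 after 0.5 h, 10.13, 10.13 and 10.17 after 1 h, and 9.17, 9.34 and 9.20 after 2 h. The libraries labelled FosKO had 11.22, 11.43 and 11.41 before LPS, 11.20, 11.38 and 11.37 after 0.5 h, 10.73, 10.90 and 10.79 after 1 h, and 9.47, 9.68 and 9.69 after 2 h. The genotypes did not overlap at any time. Bhlhe41 differed by 0.67, 0.70, 0.66 and 0.37 at 0, 0.5, 1 and 2 h, each with a standard error of 0.07, and the largest limma adjusted p was 0.000134.

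The level of Bhlhe41 at 0.5 h was within the spread of that at 0 h in both genotypes. It then fell from 0.5 to 1 h by 0.47 in LysM-Cre and by 0.51 in the FosKO-labelled libraries, and from 1 to 2 h by 0.91 and 1.19. By 2 h it was 2.73-fold below its 0 h level in LysM-Cre and 3.35-fold below in the FosKO-labelled libraries. The difference in response at 2 h was -0.29 ± 0.10 (SE) with a limma adjusted p of 0.0467. This call was lost in fits without any 1 of 8 libraries (LysM-Cre 0 h replicates 1, 2 and 3, LysM-Cre 2 h replicates 2 and 3, FosKO 0 h replicates 2 and 3, and FosKO 2 h replicate 1), with values from -0.32 to -0.22 and adjusted p up to 0.139. It was also lost with median centring (-0.27, adjusted p = 0.0632), with no filter (0.0774), with only the groups compared (0.0620), with no trend (0.0648) and in the high 18S set (0.0548), which makes 13 of 23 alternatives. Bhlhe40 and Bhlhe41 thus moved in opposite directions from 0 to 1 h in both genotypes.

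Hes1, the Notch target, lay far under the filter in every library. Its 24 values were between -1.18 and -0.82, the highest in FosKO 2 h replicate 1, beside a filter at log2 of 5 and a lowest value of -2.22 in the table. No fold change or test was made for it, and its absence cannot be told from a level too low to be measured.

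Id1 rose and fell with a peak at 1 h in both genotypes. In LysM-Cre it read 3.37, 3.39 and 3.56 before LPS, 3.57, 3.79 and 3.47 after 0.5 h, 4.09, 4.42 and 4.58 after 1 h, and 3.22, 3.17 and 3.71 after 2 h. In the FosKO-labelled libraries it read 3.04, 3.42 and 3.24 before LPS, 3.05, 3.34 and 3.49 after 0.5 h, 4.14, 4.15 and 4.29 after 1 h, and 3.29, 3.55 and 3.33 after 2 h. All 6 libraries at 1 h were higher than all other Id1 values, and the genotypes overlapped at every time. From 0 to 1 h Id1 rose by 0.93 in LysM-Cre and by 0.96 in the FosKO-labelled libraries (SE 0.16, limma adjusted p = 6.56e-05 and 4.76e-05), and it fell again by 1.00 and 0.80 from 1 to 2 h. The genotype difference was -0.21 (95% interval -0.53 to 0.11), -0.32 (-0.64 to 0.01), -0.17 (-0.50 to 0.15) and 0.02 (-0.30 to 0.35) at 0, 0.5, 1 and 2 h. None of these passed the test, and the intervals still allow differences of up to 0.64.

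Id2 rose with LPS to a peak at 1 h and was higher in the FosKO-labelled libraries at every time. In LysM-Cre the levels were 11.42, 11.40 and 11.42 before LPS, 12.10, 12.09 and 12.10 after 0.5 h, 12.31, 12.36 and 12.42 after 1 h, and 11.37, 11.40 and 11.45 after 2 h. Those labelled FosKO had 11.83, 11.93 and 12.00 before LPS, 12.40, 12.51 and 12.56 after 0.5 h, 12.79, 12.94 and 12.81 after 1 h, and 12.10, 12.02 and 12.10 after 2 h. The genotypes did not overlap at any time. Id2 differed by 0.50, 0.40, 0.49 and 0.67 at 0, 0.5, 1 and 2 h, each with a standard error of 0.05, and the largest limma adjusted p was 7.23e-07.

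By 1 h Id2 had risen by 0.95 in LysM-Cre and by 0.93 in the FosKO-labelled libraries. At 2 h it was back within the spread of its 0 h level in LysM-Cre (-0.01, 95% interval -0.10 to 0.09) and 0.16 above it in the FosKO-labelled libraries (adjusted p = 0.00598). Without FosKO 0 h replicate 1 the latter was 0.11 and was not called (adjusted p = 0.0506). These values also depended on the scaling. After quantile normalisation they were -0.21 (adjusted p = 9.82e-05) and -0.16 (adjusted p = 0.00144), both called lower. The difference in response at 2 h was 0.16 and was not called (adjusted p = 0.108).

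Id3 had the largest rise of any member, and at 0.5 h the largest genotype difference. The LysM-Cre libraries read 5.05, 4.92 and 4.66 before LPS, 6.74, 7.16 and 7.12 after 0.5 h, 7.06, 7.30 and 7.41 after 1 h, and 5.78, 5.96 and 5.77 after 2 h. Those labelled FosKO read 4.49, 4.41 and 4.40 before LPS, 5.80, 5.82 and 5.99 after 0.5 h, 6.76, 6.80 and 7.01 after 1 h, and 5.53, 5.59 and 5.76 after 2 h. At each time all FosKO-labelled libraries were below all LysM-Cre libraries. For Id3 the gap came to -0.44, -1.13, -0.40 and -0.21 at 0, 0.5, 1 and 2 h, each with a standard error of 0.12 (limma adjusted p = 0.00637, 2.30e-07, 0.0134 and 0.162). The gap at 0.5 h was 2.19-fold, and the 2 h difference was not called (95% interval -0.47 to 0.04).

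LPS raised Id3 within 0.5 h by 2.13 in LysM-Cre, a 4.36-fold rise, and by 1.44 in the FosKO-labelled libraries. Id3 in LysM-Cre then moved by 0.25 to 1 h, which was not called (adjusted p = 0.134), whereas in the FosKO-labelled libraries it rose by a further 0.99 (adjusted p = 1.86e-06). At 1 h the rise from 0 h was 2.38 and 2.42, and the difference in response was 0.04 (95% interval -0.31 to 0.40). The difference in response at 0.5 h was -0.69 (95% interval -1.04 to -0.33) and was not called after adjustment (adjusted p = 0.289). Without LysM-Cre 0.5 h replicate 1, the lowest of its group, it was -0.82 and was called (adjusted p = 0.0393). The genotype difference at 1 h was not called without LysM-Cre 1 h replicate 3 (-0.33, adjusted p = 0.0733), FosKO 1 h replicate 1 (-0.35, 0.0512) or FosKO 1 h replicate 2 (-0.37, 0.0518). In the high 18S set alone the Id3 difference at 1 h, which rests on 1 LysM-Cre library, was -0.16 (adjusted p = 0.599).

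**Figure D2:**
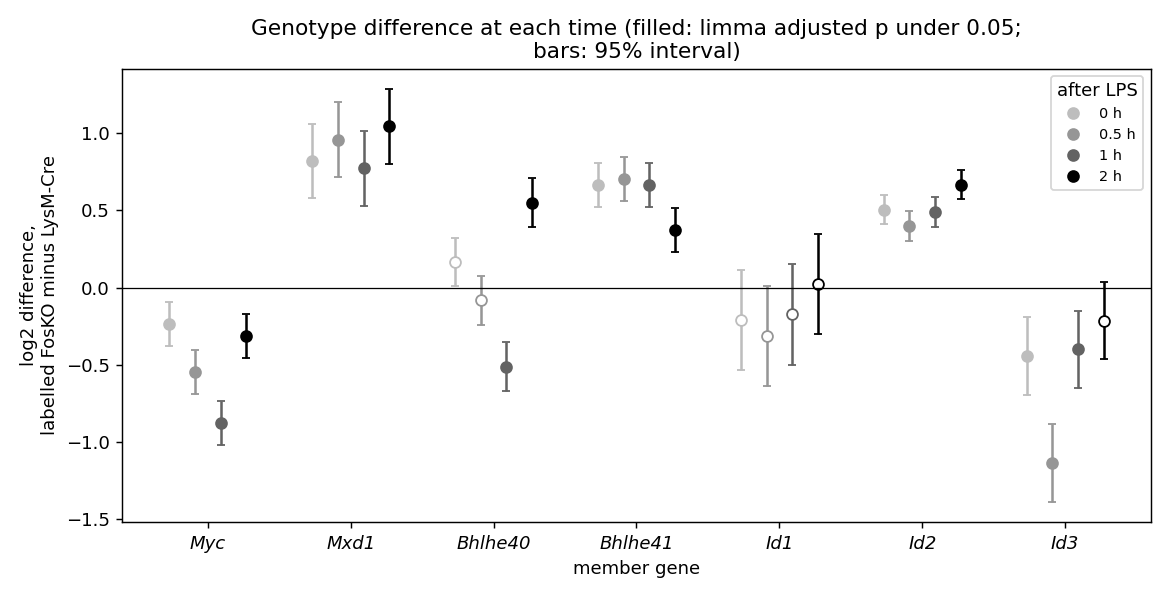
Log2 difference, labelled FosKO minus LysM-Cre (y axis), for the 7 tested members (x axis) at 0, 0.5, 1 and 2 h after LPS (light to dark), with 95% limma intervals from 3 libraries a group and filled points where the adjusted p was under 0.05. Mxd1, Bhlhe41 and Id2 lie above 0 at all times, Myc lies below 0 with its largest gap of -0.88 at 1 h, Bhlhe40 crosses from -0.51 at 1 h to 0.55 at 2 h, and Id3 is lowest at 0.5 h.

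Between the genotypes, 5, 5, 6 and 5 of 7 members were called at 0, 0.5, 1 and 2 h. Over all 13901 tested genes the share called was 35.4%, 40.9%, 33.9% and 44.6% at these times, so a call between genotypes was common in this table. Of the members called, 3, 3, 3 and 4 were higher in the FosKO-labelled libraries, and 2, 2, 3 and 1 were lower. Within the 18S sets, where 1 to 2 libraries stood in each group, the differences at 0.5 and 1 h kept their sign for Myc, Mxd1, Bhlhe40, Bhlhe41, Id2 and Id3. The difference for Myc at 1 h was -0.79 (high set) and -0.92 (low set), and for Bhlhe40 it was -0.44 and -0.65. For Mxd1 at 1 h it was 0.87 and 0.59, for Bhlhe41 0.72 and 0.58, and for Id2 0.57 and 0.41. Id3 differed by -1.04 and -1.32 (0.5 h) and by -0.16 and -0.59 (1 h), and for Id1 at 1 h the sign differed between the sets (0.13 and -0.36).

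After LPS, 4 of 7 members were called at 0.5 h in LysM-Cre (7.24% of all tested genes) and 4 in the FosKO-labelled libraries (5.92%). These were Myc, Mxd1, Id2 and Id3 in both, all of them higher. The Bhlhe40 change at 0.5 h in LysM-Cre was 0.23 and was not called (limma adjusted p = 0.0691). With a replicate block within genotype it was called (adjusted p = 0.0410), which made 5 members in LysM-Cre. At 1 h all 7 tested members were called in LysM-Cre (35.8% of all genes) and in the FosKO-labelled libraries (32.6%), with Bhlhe41 lower and the other 6 higher. At 2 h, 4 were called in LysM-Cre (60.8%) and 6 in the FosKO-labelled libraries (62.1%). Mxd1 and Id3 were still above 0 h in both genotypes, and Myc and Bhlhe41 were below it in both.

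The step from 0.5 to 1 h was called for 6 members in LysM-Cre (26.8% of all genes) and 6 in the FosKO-labelled libraries (27.5%). Id3 was the member not called in LysM-Cre and Myc the member not called in the FosKO-labelled libraries. From 1 to 2 h all 7 tested members fell in LysM-Cre, where 52.3% of all genes were called and 24.8% were called lower. In the FosKO-labelled libraries 5 of 7 fell, where 50.7% of all genes were called and 23.6% were called lower, and the steps of Mxd1 and Bhlhe40 were not called.

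The difference in response between the genotypes was called for none of the 7 members by limma at 0.5 h, where 3 (Myc, Bhlhe40 and Id3) had an unadjusted p under 0.05 and 0.115% of all genes were called. At 1 h it was called for 2 members, Myc and Bhlhe40, both with a smaller rise in the FosKO-labelled libraries, beside 1.22% of all genes. At 2 h it was called for Bhlhe40 and Bhlhe41, beside 15.0% of all genes, with the limits given above for both.

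**Figure D3:**
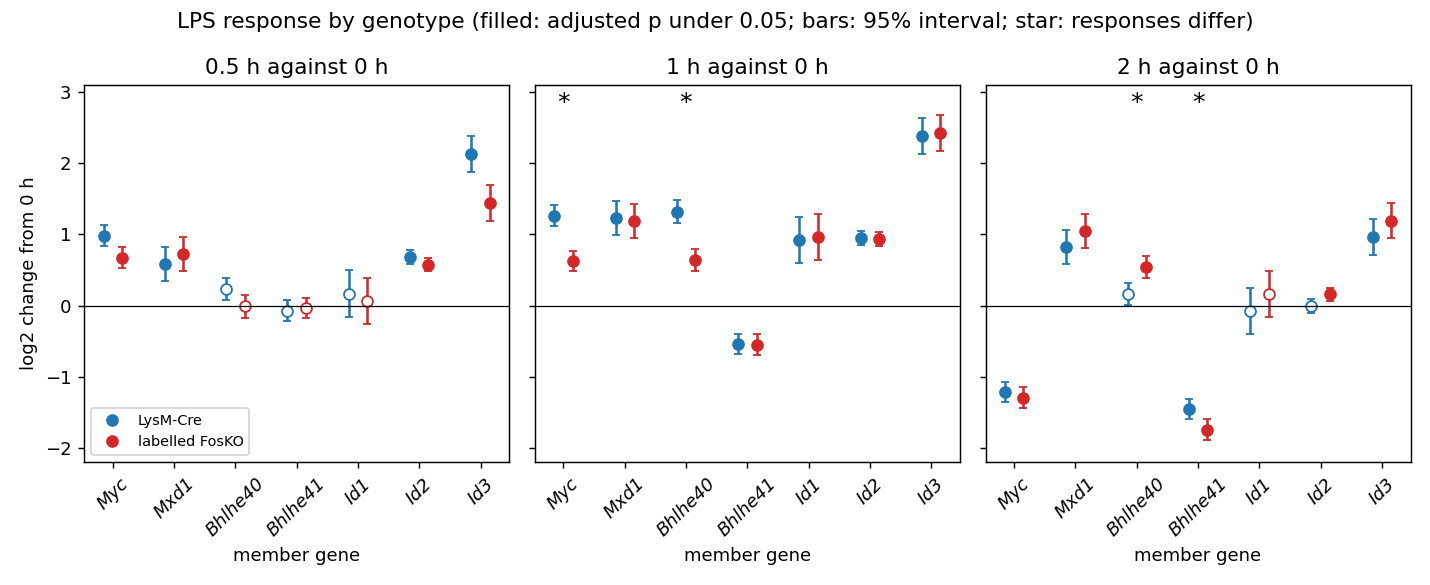
Log2 change from 0 h (y axis) after 0.5, 1 and 2 h of LPS (panels) for the 7 tested members (x axis), LysM-Cre in blue and labelled FosKO in red, with 95% limma intervals from 3 libraries a group, filled points where the change passed the test and a star where the change differed between genotypes (adjusted p under 0.05). Myc and Bhlhe40 rise less at 1 h in the FosKO-labelled libraries (0.62 and 0.64) than in LysM-Cre (1.26 and 1.32), and Bhlhe41 falls in both genotypes.

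Of 11 listed genes of the wider MYC network, 9 were tested, among them Max, Mycl, Mlx and Mlxip. The libraries labelled FosKO had 2, 2, 2 and 3 of the 9 higher and 3, 5, 4 and 3 lower at 0, 0.5, 1 and 2 h. The median difference was -0.02, -0.23, 0.03 and -0.08, beside a median within 0.01 of 0 over all genes. The share called was 55.6%, 77.8%, 66.7% and 66.7%, beside 35.4%, 40.9%, 33.9% and 44.6% of all genes. Mxi1, a MYC antagonist of the MXD family, was lower in the FosKO-labelled libraries at 0 h by 0.68 log2 units (8.35 against 9.03, limma adjusted p = 4.21e-07), opposite to Mxd1. Mxd3, of the same family, was also lower (3.65 against 4.21). Mycl, a MYC relative, rose by 2.93 in LysM-Cre from 0 to 2 h, while Myc fell, and its genotype difference at 1 h was -0.69 (adjusted p = 0.000726). In the high 18S set alone that difference was -0.33 and was not called (adjusted p = 0.205). Mnt, a repressor that also pairs with MAX, changed by -1.79 and Mxd4 by -0.85 in LysM-Cre at 2 h, both past the test.

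Of 25 textbook MYC target genes, chiefly ribosome production factors and all of them tested, most were higher than at 0 h after 2 h of LPS. At 0.5 h 1 of the 25 (4%) was called higher in each genotype, beside 7.24% (LysM-Cre) and 5.92% (labelled FosKO) of all genes called in either direction. In LysM-Cre 12 were called higher at 1 h (19.2% of all genes were called higher) and 21 at 2 h (30.6%), when the median change was 0.33 beside -0.02 over all genes. In the FosKO-labelled libraries 10 were called higher at 1 h (17.6%) and 14 at 2 h (32.6%), and the median at 2 h was 0.12. After quantile normalisation the counts at 2 h were 16 and 9. Rrs1, a ribosome assembly factor, rose by 1.73 in LysM-Cre at 2 h, Ccnd2, cyclin D2, by 2.16, and Odc1, the first enzyme of polyamine synthesis, by 0.97.

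At 2 h, 19 of the 25 MYC targets were lower in the FosKO-labelled libraries than in LysM-Cre and 2 were higher, beside 20.3% of all genes called lower. The median difference was -0.24 beside 0.00 over all genes. At 0, 0.5 and 1 h 6, 8 and 10 were lower and 2, 3 and 2 higher, which is 32%, 44% and 48% of the list called in either direction, beside 35.4%, 40.9% and 33.9% of all genes. The difference in response at 2 h was called for 14 of the 25, all 14 with a smaller rise or a fall in the FosKO-labelled libraries, beside 7.70% of all genes called in that direction. It ranged from -0.67 for Gnl3, which encodes a nucleolar GTPase, to 0.11 for Bop1, and it was below 0 for 20 of the 25. Polr1b, a subunit of RNA polymerase I, rose by 0.29 in LysM-Cre and changed by -0.33 in the FosKO-labelled libraries, a difference of -0.62 ± 0.10 (SE, limma adjusted p = 0.000137). Its level at 2 h was 8.71 ± 0.04 in LysM-Cre and 8.05 ± 0.08 in the FosKO-labelled libraries. Tfrc, the transferrin receptor, differed most at 1 h (-0.62), and Ccnd2 was higher in the FosKO-labelled libraries, by 0.91 at 0.5 h.

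**Figure D4:**
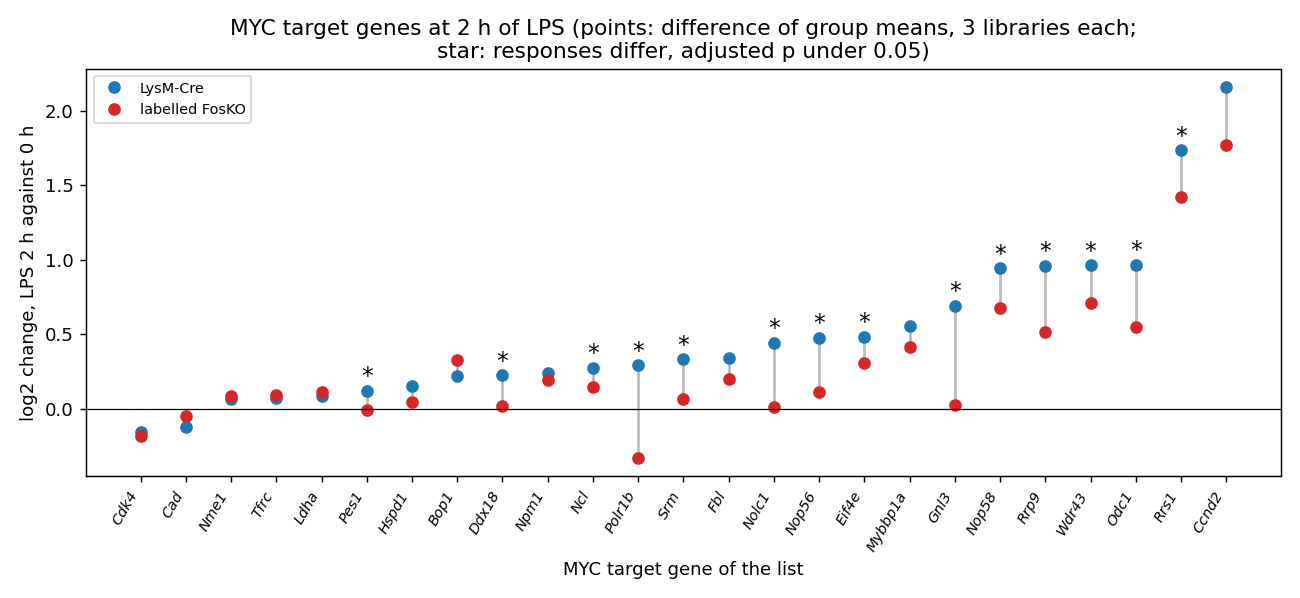
Log2 change from 0 to 2 h of LPS (y axis) of the 25 MYC target genes (x axis, ordered by their change in LysM-Cre), each point a difference of means of 3 libraries, LysM-Cre in blue and labelled FosKO in red, with a star where the change differed between genotypes (limma adjusted p under 0.05). In 20 of the 25 genes the point of the FosKO-labelled libraries lies below that of LysM-Cre, and all 14 stars are among these 20.

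Of the clock genes, to which BHLHE40 and BHLHE41 are tied, 15 were tested. At 2 h of LPS in LysM-Cre 10 of the 15 fell and 4 rose, a share of 93.3% beside the 60.8% of all genes, with a median of -0.48. Per1, a period gene, changed by -1.79 and Dbp, an output gene of the clock, by -1.24, while Nfil3, a repressor of such output genes, rose by 1.71. The libraries labelled FosKO had 2, 3, 4 and 4 of them higher and 3 lower at 0, 0.5, 1 and 2 h, a share of 33.3% to 46.7% called, which is near the 33.9% to 44.6% of all genes. Nfil3 was higher at 2 h by 0.78 (10.23 against 9.45, limma adjusted p = 5.39e-09). Nr1d1, the receptor REV-ERB alpha, was lower at 1 h (-0.94) and Cry2, a cryptochrome, at 2 h (-0.50).

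Among Notch pathway and other HES and HEY genes 18 were tested of 27 listed. Those called higher in the FosKO-labelled libraries were 1, 2, 1 and 7, and those called lower 7, 9, 7 and 8, at 0, 0.5, 1 and 2 h. Together these were 44.4%, 61.1%, 44.4% and 83.3% of the list, beside 35.4%, 40.9%, 33.9% and 44.6% of all genes. While Hes1 stayed under the filter, the Notch ligand gene Jag1 rose in LysM-Cre by 2.10 from 0 to 1 h, and Dll1, another ligand gene, rose by 2.60 from 0 to 2 h. The receptor gene Notch1 rose by 1.27 by 2 h. Dll1 was higher in the FosKO-labelled libraries at 1 h (4.14 against 3.21), Notch4, another receptor gene, was lower at 1 h (-0.81) and Maml3, a coactivator of Notch, was lower at 0.5 h (-1.13).

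Of the E proteins held by ID proteins, all 3 (Tcf3, Tcf4 and Tcf12) were tested. At 0 h 1 was higher, at 0.5 and 1 h none was called by limma (0 with an unadjusted p under 0.05), and at 2 h the FosKO-labelled libraries had 2 higher and 1 lower. Of all genes 35.4%, 40.9%, 33.9% and 44.6% were called at these times, and 3 genes are too few to set a share against them. At 2 h Tcf4 was higher by 0.52 (11.54 against 11.03, adjusted p = 1.28e-09), Tcf3 was lower (-0.19) and Tcf12 higher by 0.14, the last not called after quantile normalisation (0.06, adjusted p = 0.302). By 2 h of LPS in LysM-Cre the changes were -0.27 for Tcf3, 0.24 for Tcf4 and -0.19 for Tcf12. That of Tcf4 was not called after quantile normalisation (0.06, adjusted p = 0.115).

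BMP and SMAD genes, which act upstream of the Id genes in many tissues, were tested for 17 of 21 listed. The libraries labelled FosKO had 5, 4, 3 and 5 of them higher and 1, 4, 2 and 4 lower at those times. The share called was 35.3%, 47.1%, 29.4% and 52.9%, near that of all genes (35.4%, 40.9%, 33.9% and 44.6%). Bmp2, a ligand gene, rose by 1.61 in LysM-Cre from 0 to 1 h, and at 2 h it was higher by 1.25 in the FosKO-labelled libraries (7.58 against 6.33, limma adjusted p = 5.12e-09). Acvr2a, a receptor gene, rose by 1.22 in LysM-Cre at 1 h and was lower in the FosKO-labelled libraries at that time (-0.67). Eng, a coreceptor gene, was higher at 2 h by 0.54, and the inhibitory Smad7 changed by -0.94 in LysM-Cre from 0 to 2 h.

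The genes whose levels were most like those of each member were found by Pearson's r over the 24 libraries, given as a description. The libraries share 8 group means, so a high r reflects a shared time course as well as any shared genotype gap. For Myc the closest were Tob2 (r = 0.953) and Jmjd1c (0.951), and for Mxd1 they were Rabep1 (0.964) and Nfe2l2 (0.964). Bhlhe40 was closest to Mbtd1 (0.907) and Areg (0.901), and Bhlhe41 to Cipc (0.989) and Mfsd12 (0.985). For Id1 they were Stk35 (0.886) and Acvr2a (0.865), for Id2 Slc25a25 (0.964) and Gdf15 (0.939), and for Id3 Egr3 (0.971) and Ing5 (0.952).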

How the data were processed

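mRNA was sequenced from 24 BMDM libraries, 3 in each of 8 groups, which were assigned from the sample titles. Reads were mapped and counted with STAR 2.5.2a and RSEM 1.2.31 and normalised with DESeq2 1.16.1 on GRCm38, per the submitters' processing notes. The authors deposited 1 normalised log2 value per gene and library. Such values may pull genes with few reads towards their mean, which would understate differences in Id1 and Hes1. The methods give a typical sequencing yield but no depth for each library, so no counting interval was given and error is given by the spread between libraries. Libraries of a group correlated across genes at r of 0.995 to 0.998. The study states RefSeq genes, whereas the table carries Ensembl identifiers, and coordinates are from the GENCODE annotation of the same build.

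The log2 values the authors deposited were fitted as they stood with limma 3.58.1 in R 4.3.3, as 8 group means with 16 residual degrees of freedom and a variance trend. Genes with 2 to the power of the value at 5 or more in at least 3 libraries were tested, 17 comparisons were drawn and Benjamini-Hochberg adjustment ran over all tested genes, with a call at 0.05. With 3 libraries against 3, an exact permutation test cannot go below 0.1 and was not used.

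The members and gene lists were chosen with earlier results of these data known, so their counts are descriptions beside the share of all genes called. Named genes are the members, Fos, Lyz2 and Rn18s-rs5, from each list up to 3 genes with the largest called genotype difference and 3 with the largest called LPS change in LysM-Cre, and for each member the 2 most alike genes. Gnl3 and Bop1 were named after their values were seen, as the ends of a range. Some cell type markers and the genes that overlap a member are also named. Promoter sequences are from RefSeq (GRCm38.p6). Alternatives changed the scaling, the filter, the pseudocount (1), the trend, the libraries fitted, and a term for 18S content or replicate number.

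Pairing by replicate number was checked by correlating the deviations of same-numbered libraries from their group means. Within a genotype r was -0.25 to 0.71, and in 30 of 36 pairs the library correlated best with its own number, against 13 of 48 pairs across genotypes (r -0.53 to 0.35). In 2 of 12 pairs of groups within a genotype, FosKO 0 h with 0.5 h and FosKO 0.5 h with 1 h, r was over 0.1 for all 3 numbers (0.13 to 0.27 and 0.33 to 0.71). The labels do not say what a number marks. A block within genotype was therefore added for the LPS changes and differences in response.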

Additional observations from a re-analysis of the deposited data

Results flagged for a closer look

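The LPS response of 3 members differed between the genotypes by a test of the difference itself in the limma fit. Over all tested genes such a difference was called for 1.22% at 1 h and for 15.0% at 2 h. For Myc the change from 0 to 1 h was smaller in the FosKO-labelled libraries (difference -0.64, adjusted p = 0.000544), a call lost in the high 18S set (-0.55, adjusted p = 0.0607), which has 1 LysM-Cre library at 1 h. The Bhlhe40 difference was -0.68 at 1 h (adjusted p = 0.000957) and 0.38 at 2 h (adjusted p = 0.0187), so it changed sign between these times, and the 2 h call was lost without LysM-Cre 2 h replicate 3 (0.30, adjusted p = 0.0590). For Bhlhe41 the difference at 2 h was -0.29 (adjusted p = 0.0467), a call lost in 13 of 23 alternatives. Fos, Lyz2 and the summed macrophage, endothelial and neutrophil markers also differed between the genotypes. So did the summed stromal markers at 0 and 1 h and the summed dendritic cell markers at 2 h. The macrophage sum includes Lyz2, and no sum without Lyz2 was made. On the linear scale the mean of Lyz2 at 0 h was 1964 in LysM-Cre and 70442 in the FosKO-labelled libraries. The part of all these genes in the differences in response was not tested.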

How the results depend on the processing

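Of 119 member comparisons, 103 kept their side of the threshold under every alternative run, though in 15 of these the sign turned at least once. Over 2104 alternative values, 25 lost the call and 11 gained it. The sign turned in 47, of which 46 were called neither before nor after, and the other was Id2 at 2 h against 0 h in FosKO (-0.16 after quantile normalisation, called both times). Depth for each library is not given, so the libraries' spread alone limits the precision, and Id1 fell out under the stricter filter. No scaling moved the median of all genes by 0.1 or more.

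For the difference in response at 2 h, 1 member was called instead of 2 with median centring, with no filter, with only the groups compared, with no trend and in the high 18S set, and 0 to 2 when single libraries were left out. At 1 h, 1 member was called in the high 18S set. At 0.5 h, 0 to 1 were called when single libraries were left out. For all genes, the difference in response at 0.5 h gave 16 calls, against 25 after quantile normalisation, 6 with only the groups compared, 9 in the high 18S set and 9 to 24 without single libraries. At 1 h it gave 169, against 112 with only the groups compared and 93 in the high 18S set. With only the groups compared, LPS at 0.5 h in FosKO gave 301 calls instead of 823 (542 to 960 without single libraries, lowest without FosKO 0.5 h replicate 3), and 1 h against 0.5 h in FosKO gave 2471 instead of 3819. In the high 18S set, the genotypes at 1 h gave 2994 calls instead of 4708, LPS at 1 h in LysM-Cre 3009 instead of 4970, and 1 h against 0.5 h in LysM-Cre 2010 instead of 3725. MYC targets called higher at 2 h in FosKO were 9 instead of 14 after quantile normalisation. That set and the fit with only the groups compared hold fewer libraries, and the cause of the other changes was not tested. Alternatives for list counts and list genes were chosen after seeing the data.

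Single calls that changed beyond those given above were few. In the high 18S set, Id1 at 1 h against 0.5 h in LysM-Cre (0.41, adjusted p = 0.270) was not called. The Id2 difference in response at 2 h was called without FosKO 0 h replicate 3 (0.20, 0.0400). Bhlhe40 at 0.5 h in LysM-Cre was called with only the groups compared (0.00773) and with an 18S term (0.0406).

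With the replicate number as a block across both genotypes, the number of members called was the same in all 17 comparisons, and the genes called at 0 h between genotypes were 5136 instead of 4919. With the number as a replicate block within each genotype, chosen after seeing the data, no member lost a call. Bhlhe40 in LysM-Cre was then called at 0.5 h (0.23, adjusted p = 0.0410) and at 2 h (0.16, 0.0476), and no other member call changed. The FosKO counts of genes called at 0.5 h against 0 h and at 1 h against 0.5 h were 1179 instead of 823 and 4259 instead of 3819, and the difference in response at 0.5 h gave 25 calls instead of 16.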
